A study of Mus musculus with 7 samples.

Results

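The keratin genes of the mouse were followed in medullary thymic epithelial cells (mTECs) in which Ikzf1 could be deleted. Members were all protein-coding genes whose symbol is Krt followed directly by a number, which took 54 of the 55536 genes in the deposited table, with 27 in the cluster on chromosome 11 and 27 in the cluster on chromosome 15. Keratin-associated proteins and the pseudogene Krt8-ps were left out. EPCAM+ mTECs had been freshly sorted from thymus and their RNA made into SMART-seq libraries, a method that copies whole transcripts from small samples. All 7 libraries came from Ikzf1fl/fl Pou2f3-/- mice. There were 4 libraries without Cre (Cre-negative, numbers 46, 48, 75 and 77) and 3 with Cre (Cre-positive, numbers 45, 76 and 80). Floxed Ikzf1 alleles and the absence of Pou2f3, the factor that tuft cells need, were thus shared by both groups. Neither the Cre driver nor the deleted exons nor the ages of the mice could be taken from the labels. The comparison asks what Ikaros, the zinc-finger transcription factor encoded by Ikzf1, does to expression in mTECs that cannot make tuft cells.

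Keratins build the intermediate filaments of epithelial cells. Each filament unit joins a type I keratin with a type II keratin, and most epithelial layers use their own pair, so the keratins present mark the state of a cell. Krt5 with Krt14 marks basal cells, Krt8 with Krt18 simple epithelium, Krt1 with Krt10 the upper epidermis, Krt25 to Krt28 with Krt71 to Krt74 the inner root sheath of the hair follicle, and the hair keratins the shaft and nail. In the thymus, Krt5 and Krt14 are used as markers of the medulla. Many mTECs also express genes of peripheral tissues, and some of them resemble skin keratinocytes and other differentiated epithelia.

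Whole reads recovered from the normalized values summed to 9815958 to 12599078 per Cre-negative library and 11383465 to 11623062 per Cre-positive library. Epcam was present in all 7 libraries, at 3882.7 to 6771.2 normalized counts, which are the read counts divided by the authors' size factor. Ikzf1 itself read 1118.7 to 1219.0 normalized counts without Cre and 1310.3 to 1828.6 with Cre. These values sum the whole gene and do not check the deletion. Cre-negative 48 stood apart, since it alone held reads of Y-linked genes, 3938 normalized counts in sum against at most 1 in each other library. The labels give no sex and do not say that each number is a separate mouse, so the p-values below measure only the spread between these libraries, which may be technical. In a bulk sample, fewer cells of a type and less RNA per cell cannot be told apart.

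Fewer keratins were detected in the Cre-positive libraries. At least 10 reads were found for 47, 46, 45 and 48 keratins in Cre-negative 46, 48, 75 and 77, and for 31, 32 and 29 in Cre-positive 45, 76 and 80. The summed keratin reads did not separate the groups, at 2627 to 3493 CPM (a library's reads scaled to a common total) without Cre and 2880 to 3951 CPM with Cre. Detection was lower over all genes too, since 19417 to 20467 genes reached 10 reads without Cre and 17169 to 18014 with Cre. What share of the keratin difference goes with that was not tested.

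Of the 54 keratins, 49 reached the mean of 5 normalized counts that the limma test asks for. A call means an adjusted p under 0.05 over all 22878 genes tested. Lower calls in Cre-positive libraries were made for 21 keratins, against 9.11% of all genes tested, and higher calls for 3, against 4.66%. Calls in either direction came to 13.8% of all genes. The median log2 fold change of the 49 keratins was -1.81, beside -0.10 for all genes. Every Cre-positive library was below every Cre-negative one for 23 keratins (14.5% of all genes) and above for 3 (10.8% of all genes). The 25 keratins without a call had 21 values below and 4 above 0, and 5 keratins (Krt31, Krt34, Krt40, Krt74 and Krt88) were too low to test. Because a gene can pass the filter through the group where it is high, the 38 keratins with a mean of at least 5 in both groups were also counted, and 16 of them were called lower. The share of all genes under that stricter filter was not computed, so the 9.11% is not its match. Leaving out Cre-negative 48, the library with Y-linked reads, left 3 higher and 13 lower calls, and leaving out Cre-positive 80 left 1 higher call. Count tests on the recovered reads called 16 lower and 2 higher in edgeR (8.68% and 5.06% of the 19998 genes it tested). DESeq2 called 22 lower and 3 higher (6.3% and 3.3% of 45574 genes). These 45574 are all genes with a DESeq2 p-value. Some of them, such as the rare Krt31 and Krt88, were given no adjusted p and could not be called. The DESeq2 shares are therefore not on the same footing as those of limma and edgeR. The authors' deposited table gives 20 lower and 3 higher keratins at an adjusted p under 0.05, with no adjusted p for 12.

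Higher and lower calls fell on keratins of different abundance. The 6 keratins whose mean reached 1000 normalized counts gave 3 higher and no lower calls, and 18.1% of all genes at that level were called higher. The 48 keratins below that mean gave all 21 lower calls from 43 tested, where 9.29% of all genes at that level were called lower. The rare keratins also varied more between libraries. Over all tested keratins the median coefficient of variation was 35.3% without Cre and 66.9% with Cre, while the 6 abundant ones had 18.2% and 25.1%. In the plot of all keratins by library, 3 of the 6 abundant genes have every Cre-positive library to the right, and in 3 the groups overlap. Of the 43 tested keratins below that mean, 23 have every Cre-positive library to the left, and in 20 the groups overlap.

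**Figure D1:**
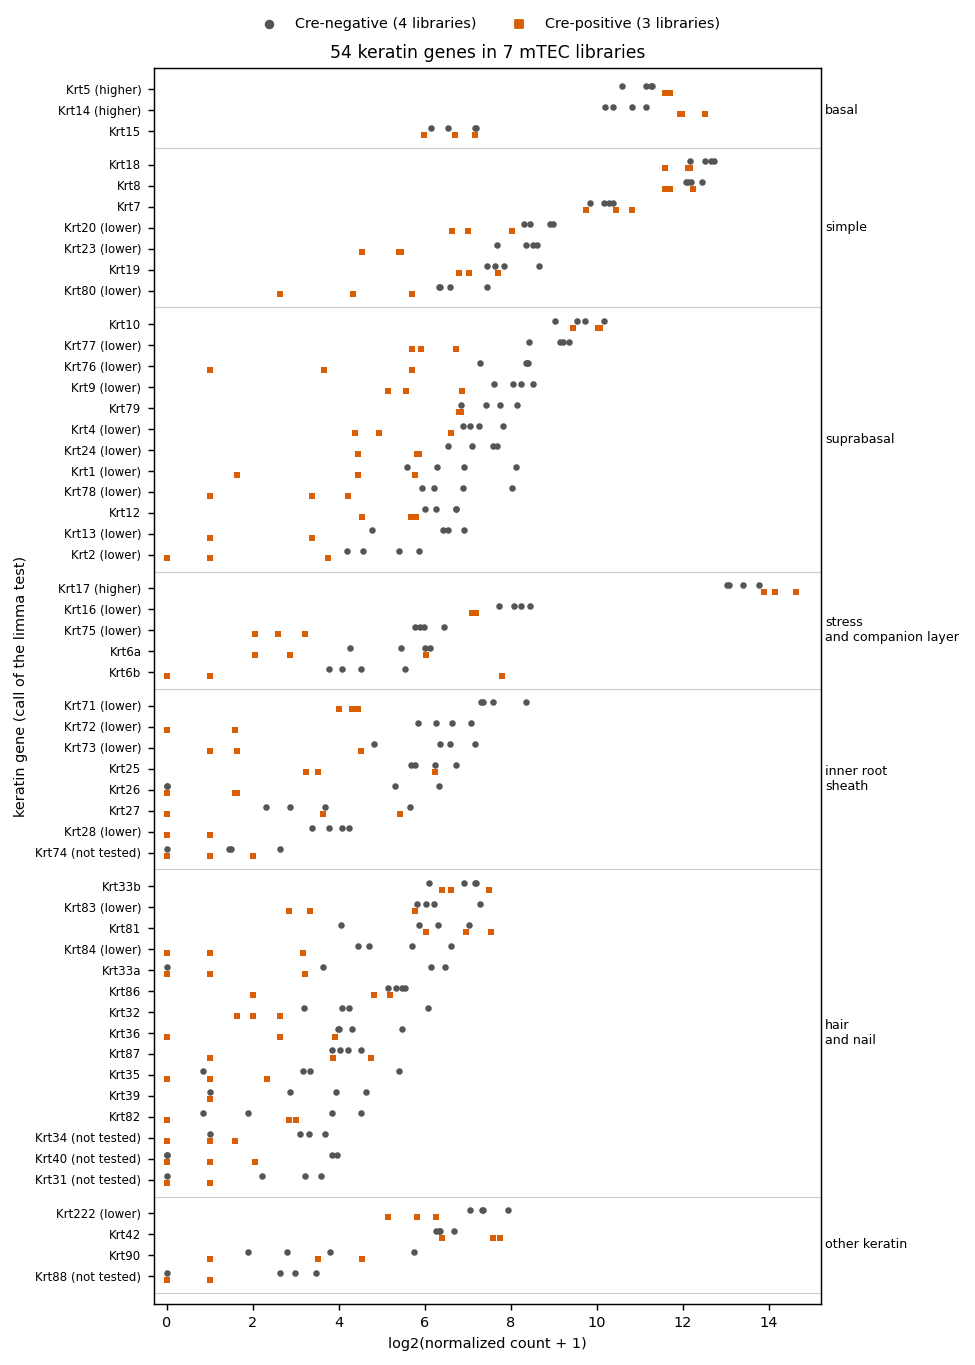
Level of each of the 54 keratins, as log2(normalized count + 1) on the x axis, in 4 Cre-negative (grey circles) and 3 Cre-positive (orange squares) libraries, with genes grouped by class on the y axis and the call of the limma test in brackets. Krt17 lies farthest right and higher with Cre, and 21 keratins are marked lower.

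Of the 3 basal keratins, 2 were called higher. That call was made for 4.66% of all genes tested, and for 18.1% of those with a mean of at least 1000. Krt14, the type I keratin of basal cells (ENSMUSG00000045545, chr11:100203162-100207548), had 1319.0, 1162.3, 2269.2 and 1809.3 normalized counts in the Cre-negative libraries, in the order 46, 48, 75 and 77 used throughout. It had 3896.6, 4005.7 and 5880.5 in the Cre-positive libraries, in the order 45, 76 and 80. The lowest Cre-positive library lay above the highest Cre-negative one. The means were 1640 ± 502 (SD, n = 4) and 4594 ± 1115 (SD, n = 3). Its log2 fold change, on the log2(normalized count + 1) scale used for every gene here, was 1.51 (SE 0.23) with a limma adjusted p of 0.00132. That call was kept under all 17 alternative settings.

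Krt5, the type II partner of Krt14 (ENSMUSG00000061527, chr15:101707070-101712891), had 1535.2, 2469.4, 2424.2 and 2237.3 normalized counts without Cre and 3256.0, 3337.7 and 3042.5 with Cre. The groups did not overlap, and the 3 Cre-positive values lay close together. Means of 2167 ± 433 (SD, n = 4) and 3212 ± 152 (SD, n = 3) gave a value of 0.59 (SE 0.18) and a limma adjusted p of 0.0475. That value was near the threshold. It became 0.197 with scaling to library totals, 0.0615 in edgeR, 0.0604 with no filter and 0.0523 with a term for the range of the sample numbers. Leaving out any 1 library other than Cre-negative 48 gave 0.0511 to 0.126. Krt15, a keratin of basal and stem cells, had 142.5, 144.8, 69.4 and 91.0 without Cre and 61.7, 103.1 and 141.2 with Cre, so the groups overlapped (-0.15, SE 0.40, adjusted p = 0.854).

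Keratins of stress and of the companion layer, the cell sheet between inner and outer root sheath, went in opposite directions. Krt17, induced in injured and activated epithelium and the most abundant keratin (ENSMUSG00000035557, chr11:100256217-100261029), had 8628.2, 8277.9, 13909.1 and 10697.6 normalized counts without Cre. With Cre it had 15205.9, 17961.4 and 25126.9, all above the Cre-negative range. Means of 10378 ± 2585 (SD, n = 4) and 19431 ± 5121 (SD, n = 3) gave 0.90 (SE 0.21, adjusted p = 0.0131). Without Cre-positive 80 the value was 0.70 with an adjusted p of 0.0529. Krt17 alone supplied 26.9% to 37.6% of all keratin reads without Cre and 44.4% to 52.7% with Cre.

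Krt16, which like Krt17 is induced in stressed epidermis, fell. Its normalized counts were 299.2, 345.7, 210.8 and 266.7 without Cre and 142.1, 144.2 and 134.9 with Cre. The Cre-positive values were tight and all below the Cre-negative ones (-0.97, SE 0.26, adjusted p = 0.0263). Its call was lost on leaving out any 1 library other than Cre-negative 75 (adjusted p = 0.0546 to 0.0759). Krt14 and Krt16 share sequence, with 13.9% and 12.4% of their 50-base stretches found in another keratin, so reads that fit both are uncertain between them.

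Krt75, the type II keratin of the companion layer, fell to a low level. It had 57.8, 62.1, 85.6 and 53.8 normalized counts without Cre and 3.1, 5.0 and 8.3 with Cre, which gave -3.40 (SE 0.59, adjusted p = 0.00257). Krt6a and Krt6b, the type II partners of Krt16 and Krt17, were not called. Krt6a had 42.7, 63.0, 18 and 68.2 without Cre and 6.3, 64.1 and 3.1 with Cre (-1.81, adjusted p = 0.202). Krt6b had 15.9, 45.3, 12.6 and 21.7 without Cre and 0.0, 220.3 and 1.0 with Cre (-1.54, adjusted p = 0.534), so its mean was 23.9 without and 73.8 with Cre, and edgeR gave 1.66 (adjusted p = 0.467). Cre-positive 76 held most reads of both genes in its group. Without that library both were called lower, Krt6a at -3.00 (adjusted p = 0.0284) and Krt6b at -3.97 (adjusted p = 0.0223). The 2 genes share 44.8% of their 50-base stretches, and reads may be split between them.

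Simple keratins gave 3 lower calls among 7 members, and the abundant Krt18, Krt8 and Krt7 were not called. Over all genes tested, 9.11% were called lower. Krt18, the type I keratin of simple epithelium, had 4568.0, 6443.8, 6768.1 and 5860.1 normalized counts without Cre and 4443.1, 3073.3 and 4607.9 with Cre (-0.56, SE 0.19, adjusted p = 0.0669). Its type II partner Krt8 had 4295.7, 4411.8, 5540.2 and 4682.5 against 3315.6, 3041.3 and 4842.5 (-0.37, SE 0.18, adjusted p = 0.203). For both genes the groups overlapped through Cre-positive 80. Both were called lower with scaling to library totals, Krt18 at -0.76 (adjusted p = 0.0139) and Krt8 at -0.57 (adjusted p = 0.0382), and Krt18 also without Cre-negative 46 (-0.67, adjusted p = 0.0461). Krt8 also shares 26.9% of its 50-base stretches with other members of the family, the pseudogene included. Krt7, the type II keratin of ducts, had 915.9, 1149.5, 1323.3 and 1242.7 against 1390.8, 855.2 and 1795.8 (0.17, SE 0.24, adjusted p = 0.697), and its sign turned to -0.037 with scaling to library totals. Krt19, its type I partner, had 197.8, 402.9, 227.0 and 171.6 against 129.6, 109.2 and 206.6 (-0.72, SE 0.34, adjusted p = 0.189).

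The other 3 keratins counted here in the simple class were called lower. Krt23, a type I keratin of glandular epithelium (ENSMUSG00000006777, chr11:99477974-99493137), had 323.5, 391.0, 363.9 and 203.7 normalized counts without Cre and 40.8, 22.0 and 42.6 with Cre. No libraries of the groups overlapped. Means of 320.5 ± 82.7 (SD, n = 4) and 35.1 ± 11.4 (SD, n = 3) gave -3.17 (SE 0.36, adjusted p = 1.85e-04), a call kept under all 17 alternatives. Krt20, known from intestinal epithelium and Merkel cells, had 503.6, 478.7, 317.1 and 344.3 against 97.2, 258.4 and 127.7 (-1.44, SE 0.33, adjusted p = 0.0125). Krt80 had 94.7, 173.4, 80.2 and 78.6 against 51.2, 19.0 and 5.2 (-2.45, SE 0.65, adjusted p = 0.0257). Its call was lost in edgeR (adjusted p = 0.0586) and when Cre-negative 46, Cre-negative 48, Cre-positive 76 or Cre-positive 80 was left out (0.0524 to 0.0815), and the value was -1.66 without Cre-positive 80 and -3.19 without Cre-positive 45.

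Suprabasal keratins, made by cells that have left the basal layer, gave 9 lower calls among 12 members and no higher one. Of all genes with a mean under 1000, 9.29% were called lower. The median log2 fold change of the class was -2.51. Krt2 and Krt13, both called lower, passed the filter only through the Cre-negative group, with a Cre-positive mean under 5. Krt77, a type II keratin of skin (ENSMUSG00000067594, chr15:101858732-101869705), had 587.4, 654.0, 340.5 and 559.3 normalized counts without Cre and 104.5, 59.1 and 50.9 with Cre. Means of 535.3 ± 136 (SD, n = 4) and 71.5 ± 28.9 (SD, n = 3) gave -2.92 (SE 0.32, adjusted p = 1.64e-04), the lowest adjusted p of all tested keratins. Leaving out single libraries and the other alternatives kept that call. Krt9, the keratin of palms and soles, had 297.5, 363.5, 193.7 and 263.6 against 114.9, 46.1 and 34.3 (-2.24, SE 0.41, adjusted p = 0.00326). Krt76, a keratin of the palate, had 336.0, 153.7, 324.3 and 332.9 against 11.5, 51.1 and 1.0 (-4.65, SE 0.82, adjusted p = 0.00282). For Krt76 the size rested on single Cre-positive libraries, with -5.78 without 76 and -3.43 without 80, and -3.73 in edgeR.

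Both members of the mucosal pair, Krt13 and Krt4, were called lower, by different amounts. Krt13, the type I keratin of mouth and esophagus, had 119.8, 84.7, 26.1 and 91.0 normalized counts against 9.4, 1.0 and 1.0 (-4.36, SE 0.80, adjusted p = 0.00361), and -5.16 without Cre-positive 45. Krt4, its type II partner, had 130.7, 150.7, 225.2 and 117.9 against 29.3, 97.1 and 19.7 (-1.95, SE 0.50, adjusted p = 0.0230). The Krt4 call was lost in edgeR (adjusted p = 0.0644) and when any library other than Cre-negative 77 and Cre-positive 76 was left out (0.0501 to 0.0710), and the value was -2.60 without Cre-positive 76. Krt78 had 117.3, 257.1, 60.4 and 73.4 against 9.4, 1.0 and 17.6 (-3.90, SE 0.77, adjusted p = 0.00556), and -2.97 without Cre-positive 76 or -4.57 without 80. Krt24 had 203.6, 191.1, 91.9 and 136.5 against 55.4, 57.1 and 20.8 (-1.85, SE 0.45, adjusted p = 0.0169), with the call lost without Cre-negative 46 (0.0613) or 48 (0.0533).

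Of the epidermal pair Krt1 and Krt10, Krt1 fell. Krt10, the type I member, had 1149.8, 843.2, 735.1 and 520.0 normalized counts without Cre and 1042.8, 1072.5 and 698.6 with Cre, and the groups overlapped (0.24, SE 0.26, adjusted p = 0.593). Krt1, the type II member, had 118.2, 274.8, 46.8 and 76.5 against 20.9, 53.1 and 2.1 (-2.77, SE 0.86, adjusted p = 0.0494), and its groups also overlapped. The Krt1 call was lost in edgeR (0.0930), with a pseudocount of 0.5 (0.0547), with the number-range term (0.0573) and when any library other than Cre-negative 75 and Cre-positive 76 was left out (0.0681 to 0.143), while the value ran from -3.67 without Cre-positive 76 to -1.61 without 80. Krt2, a type II keratin of the upper epidermis, had 22.6, 41.4, 17.1 and 56.9 against 0.0, 1.0 and 12.5 (-3.42, SE 0.95, adjusted p = 0.0313). Its call was lost in edgeR (0.111) and when any library other than Cre-negative 75 and Cre-positive 80 was left out (0.0627 to 0.0931), and the value was -2.62 without 45 and -4.50 without 80. Krt12, the corneal keratin, and Krt79 were not called (-1.10, adjusted p = 0.127, and -0.72, adjusted p = 0.176).

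Inner root sheath keratins had the lowest class median, -3.19 over 7 tested members, with 4 lower calls and 3 without a call. Of all genes with a mean under 1000, 9.29% were called lower. Krt26, Krt28 and Krt72 passed the filter only through the Cre-negative group, with a Cre-positive mean under 5. Krt28 and Krt72 are among the lower calls, and the class median is the value of Krt28, a gene with few reads. Krt71, a type II keratin of that sheath (ENSMUSG00000051879, chr15:101733950-101743109), had 326.0, 161.5, 191.9 and 157.2 normalized counts against 20.9, 15 and 18.7. Means of 209 ± 79.4 (SD, n = 4) and 18.2 ± 2.98 (SD, n = 3) gave -3.40 (SE 0.40, adjusted p = 2.36e-04). Krt72, the next gene of the same kind with a test (ENSMUSG00000056605, chr15:101776172-101786458), had 75.4, 56.1, 97.3 and 134.4 against 0.0, 2.0 and 0.0 (-5.92, SE 0.73, adjusted p = 2.88e-04). Over each group that was 385 against 2 reads, a ratio per library total of 151 (95% interval 41.4 to 1248, counting error only). Calls for both genes were kept under all 17 alternatives, but the size for Krt72 depends on the pseudocount and was -4.03 with 5 in place of 1 and -6.82 in edgeR.

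Krt73 had 143.3, 80.8, 27.0 and 94.1 normalized counts against 21.9, 1.0 and 2.1 (-3.84, SE 0.87, adjusted p = 0.0117), and -4.91 without Cre-positive 45 or -3.15 without 76. Krt28, a type I member, had 15.9, 17.7, 12.6 and 9.3 against 0.0, 1.0 and 1.0 (-3.19, SE 0.86, adjusted p = 0.0277). That rested on 60 against 2 reads, a ratio of 23.5 (95% interval 6.22 to 198), and the call was lost with no filter (0.0741) and without any 1 library (0.0505 to 0.0797). Krt25, Krt26 and Krt27, the remaining type I members, gave -1.78, -1.83 and -0.60 with adjusted p of 0.109, 0.480 and 0.794. Without Cre-positive 76, Krt25 was called lower (-2.73, adjusted p = 0.0117) and the Krt27 value was 0.90. Krt26 was at 0.0 in Cre-negative 46 and 48 and at 38.7 and 78.6 in 75 and 77, so these genes varied strongly within the group.

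The letters just before the start sites were compared across the classes. RefSeq promoter windows on GRCm38.p6 were found for 36 of the 54 keratins, and the 250 bases before each start were searched on both strands for the exact letters TATAAA, the core of the TATA box. TATAAA stood in 7 of 7 inner root sheath windows, 6 of 9 hair and nail windows, 3 of 10 suprabasal and 1 of 5 simple windows. It stood in 17 of 36 keratin windows (47.2%), against 14.3% of 27025 genes. The only windows of Krt14 and Krt7 belong to starts 1518 and 1360 bases inside the gene as deposited, so they do not cover the first start, and without them the count was 17 of 34. Among basal keratins that leaves Krt5, which had no match. The last 60 bases before the start are shown for 4 inner root sheath genes with a match close to the start, for Krt72, whose match lies farther upstream on the other strand, and for basal Krt5. Capitals mark TATAAA.
Krt71, chr15:101743098-101743157, minus strand: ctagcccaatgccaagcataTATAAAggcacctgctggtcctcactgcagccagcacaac
Krt73, chr15:101802361-101802420, minus strand: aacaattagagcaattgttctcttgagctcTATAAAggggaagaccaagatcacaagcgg
Krt28, chr11:99374904-99374963, minus strand: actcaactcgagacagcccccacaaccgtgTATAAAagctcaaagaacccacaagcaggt
Krt25, chr11:99322952-99323011, minus strand: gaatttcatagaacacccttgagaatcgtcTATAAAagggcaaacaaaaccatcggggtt
Krt72, chr15:101786521-101786580, minus strand: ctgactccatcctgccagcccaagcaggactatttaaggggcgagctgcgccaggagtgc
Krt5, chr15:101712906-101712965, minus strand: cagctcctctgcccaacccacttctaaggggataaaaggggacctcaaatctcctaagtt
Among the matched keratins, 7 of 15 called lower and 7 of 16 without a call held TATAAA. The other motifs searched were found in these shares of keratin windows and of all genes. TGANTCA, an AP-1 site, was in 2.78% against 7.82%, GCCNNNGGC, an AP-2 site, in 13.9% against 15.4%, and TGGGAA in 22.2% against 24.1%. A match is a description of letters and not of binding.

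Hair and nail keratins, which harden the shaft, were lower by median (-2.09), with 2 lower calls among 12 tested of 15 members. Krt32, Krt33a, Krt35, Krt39, Krt82 and Krt84 passed the filter only through the Cre-negative group, with a Cre-positive mean under 5, and the median includes them. That was 16.7%, against 9.29% of all genes with a mean under 1000. For 4 of the 12 (33.3%) every Cre-positive library was below every Cre-negative one, against 14.5% of all genes. Krt84, a type II hair keratin, had 25.1, 96.5, 20.7 and 50.7 normalized counts against 0.0, 8.0 and 1.0 (-3.97, SE 0.91, adjusted p = 0.0125), and -3.28 without Cre-positive 45 or -4.86 without 76. Krt83 had 55.3, 72.9, 154.0 and 64.1 against 53.3, 9.0 and 6.2 (-2.35, SE 0.69, adjusted p = 0.0397). Its call was lost in edgeR (0.110), with the number-range term (0.0508) and on leaving out any 1 library other than Cre-positive 45 (0.0660 to 0.12). Without Cre-positive 45 the value was -3.25, and within the samples numbered 45 to 48 it was -0.25. Krt83 shares 22.1% of its 50-base stretches with other keratins, so its reads are partly uncertain. With a pseudocount of 5 the values of rare keratins shrank, among them Krt28 to -1.72, Krt2 to -2.17, Krt84 to -2.65, Krt75 to -2.75, Krt73 to -2.93, Krt78 to -3.18, Krt13 to -3.24 and Krt76 to -3.98. Krt33a was called lower without Cre-negative 75 (-4.01, adjusted p = 0.0371) and Krt32 in DESeq2 (-2.97, adjusted p = 0.0153). The 10 tested members without a call ran from -2.66 for Krt33a to 1.03 for Krt81, and spread within groups was wide, with a median coefficient of variation of 69.9% without Cre. Krt81 (adjusted p = 0.307) and Krt33b (-0.01, adjusted p = 0.992), which share stretches with other hair keratins (37.7% and 24.2%), were near or above 0.

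Of the remaining keratins, Krt222, a keratin-like gene, fell. It had 160.1, 243.3, 131.5 and 162.3 normalized counts against 55.4, 34.0 and 75.8 (-1.68, SE 0.37, adjusted p = 0.0107). Krt42 (0.84, adjusted p = 0.165) and Krt90 (-0.54, adjusted p = 0.793) were not called. Krt42 was called higher without Cre-positive 76 (1.26, adjusted p = 0.0411).

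Neighbouring genes did not always share a direction. On chromosome 15, 11 keratins lie between Krt5 and Krt8 (chr15:101733950-101954287), and 9 of them were called lower, while Krt79 was not called and Krt74 was not tested. All 11 are inner root sheath or suprabasal keratins, so position and class cannot be told apart in this stretch. Among the other 16 keratins of that chromosome 4 were called lower, and on chromosome 11 it was 8 of 27. Over all genes tested, 9.11% were called lower. Krt5, at the edge of the stretch, was called higher. On chromosome 11, Krt14, Krt16, Krt17 and Krt42 lie next to each other, with Krt14 and Krt17 higher and Krt16 lower. The plot of fold change by gene order shows both arrangements.

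**Figure D2:**
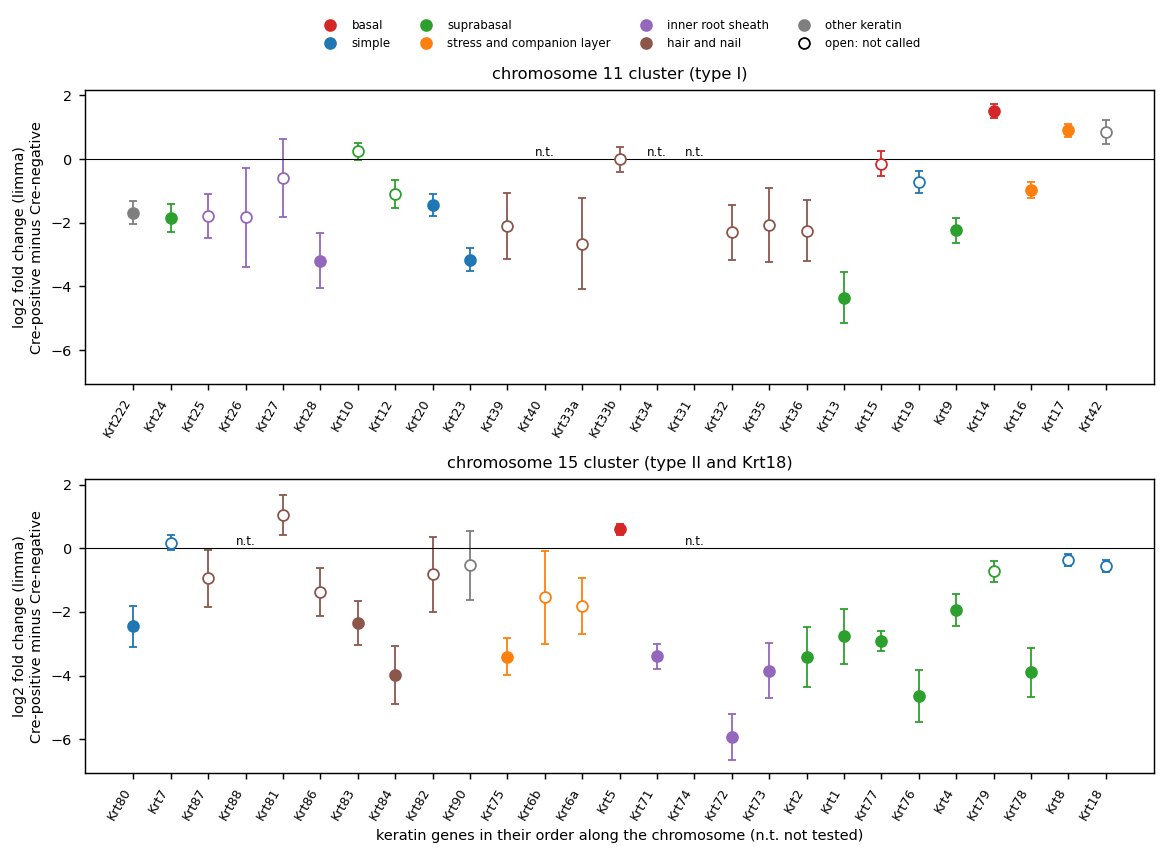
Log2 fold change of each keratin with its standard error (y axis, Cre-positive minus Cre-negative) in chromosomal order (x axis) for the clusters on chromosomes 11 and 15, coloured by class, with open circles for genes not called and n.t. for genes not tested. Of the 11 genes between Krt5 and Krt8, 9 are filled and below 0.

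Levels of different genes were compared per kilobase of exon, counting every base in any annotated exon of a gene. That length can exceed the transcript expressed, and the order depends on it. It was 7049 bases for Krt7 and 2114 for Krt10, and Krt7 stood at rank 11 without Cre and 7 with Cre. Krt17 stood highest in both groups, at 6691 ± 1667 normalized counts per kilobase without Cre and 12528 ± 3302 with Cre. Without Cre it was followed by Krt18 (4113 ± 675), Krt8 (2417 ± 287), Krt5 (986 ± 197), Krt14 (933 ± 286) and Krt10 (384 ± 124), with Krt5 and Krt14 within their spread of each other. With Cre the order was Krt17, Krt18 (2812 ± 586), Krt14 (2613 ± 634), Krt8 (1907 ± 496), Krt5 (1462 ± 69.4) and Krt10 (444 ± 98.3). Compared within each Cre-positive library, Krt14 stood above Krt8 and Krt8 above Krt5 in all of them. Krt18 stood above Krt14 in Cre-positive 45 and below it in 76 and 80. Krt14 thus stood at rank 5 without Cre and 3 with Cre. Krt23 dropped from rank 8 to 22 and Krt77 from 9 to 17.

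Basal keratins and, through Krt17, the stress and companion layer class made up more of the keratin reads in the Cre-positive libraries. Basal keratins took 10.8% to 13% of keratin reads without Cre and 19.0% to 21.1% with Cre, and stress and companion layer keratins 28.6% to 38.5% and 44.8% to 53.0%. Krt17 alone held 26.9% to 37.6% without Cre and 44.4% to 52.7% with Cre. Krt16 and Krt75 of the same class were called lower. Simple keratins took 39.3% to 43.8% without Cre and 20.9% to 27.6% with Cre. Suprabasal keratins took 6.16% to 12.1% and 2.15% to 4.55%, and inner root sheath keratins 1.15% to 2.34% and 0.10% to 0.28%. In each of these classes the ranges of the groups were separate. These shares are parts of one total, so a rise in Krt17 alone lowers the others.

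**Figure D3:**
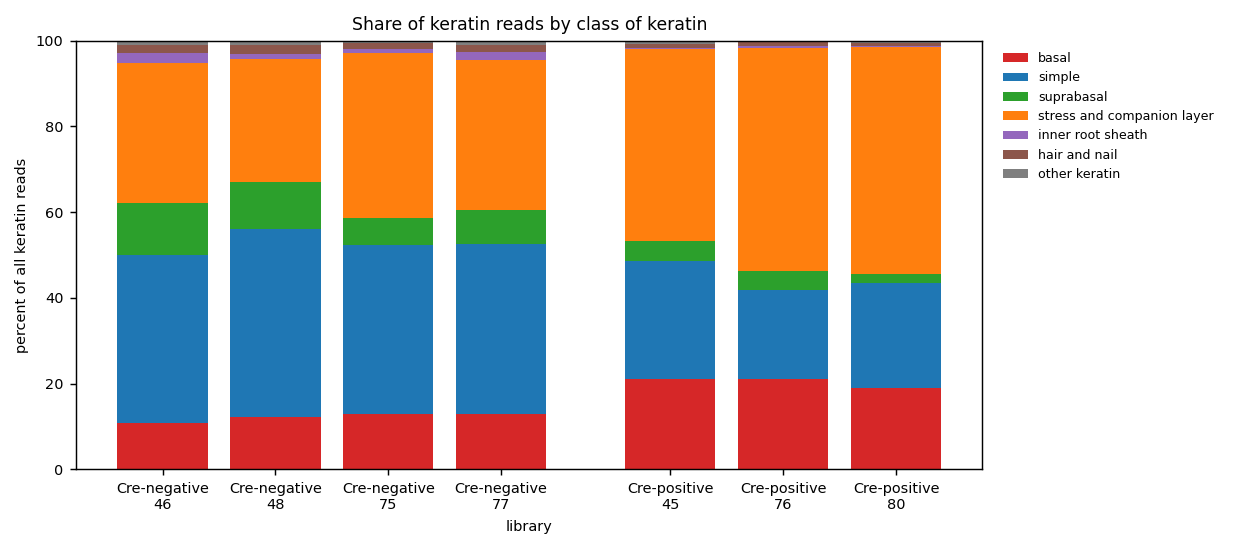
Percent of all keratin reads (y axis) taken by each class of keratin in each library (x axis). The basal share is 10.8% to 13% in the 4 Cre-negative and 19.0% to 21.1% in the 3 Cre-positive libraries.

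Since keratins work in pairs, the log2 ratio of type II to type I was compared for 10 pairs. Type I keratins took a mean of 67.0% of keratin reads without Cre and 76.9% with Cre. The ratio of Krt5 to Krt14 was 0.43 ± 0.45 (SD, n = 4) without Cre and -0.49 ± 0.40 (SD, n = 3) with Cre, a difference of -0.92. The ratio of Krt77 to Krt10 differed by -3.16 and that of Krt1 to Krt10 by -3.01, and that of Krt7 to Krt19 by 0.89. In these 4 pairs the groups did not overlap, and the two-sided exact permutation test gave its smallest possible p, 0.0571, or 0.143 adjusted over the 10 pairs, so the design could not reach 0.05. The Krt8 to Krt18 ratio differed by 0.19 (exact p = 0.343). Krt4 to Krt13 differed by 2.42 and Krt6a to Krt17 by -2.71 (exact p = 0.114 each), with overlap.

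**Figure D4:**
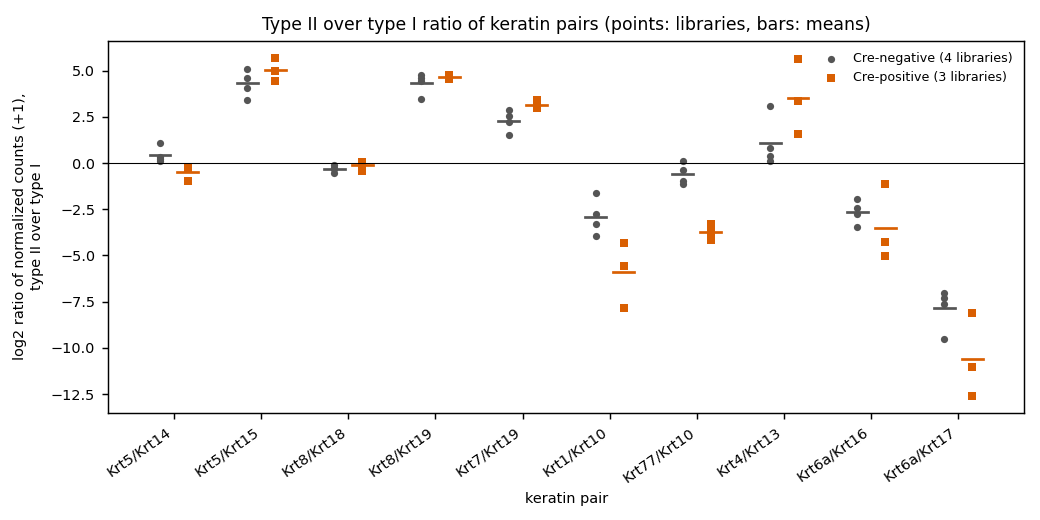
Log2 ratio of normalized counts, type II over type I (y axis), for 10 keratin pairs (x axis) in 4 Cre-negative (grey circles) and 3 Cre-positive (orange squares) libraries, with bars for group means. The groups separate for Krt5/Krt14, Krt7/Krt19, Krt1/Krt10 and Krt77/Krt10.

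Among genes that anchor keratins, lower calls outnumbered higher ones. Of 22 desmosome and cytolinker genes, 1 rose and 6 fell, with a median log2 fold change of -0.45. Over all genes tested, 4.66% were called higher and 9.11% lower. Dsg1a, a desmosomal cadherin of differentiated epidermis, had 2735.3, 2486.1, 2417.9 and 2473.1 normalized counts against 1083.6, 536.8 and 506.6 (-1.92, SE 0.24, adjusted p = 3.00e-04). Perp, a desmosomal protein of stratified epithelium, had 1786.6, 2587.6, 1747.6 and 1380.2 against 3466.0, 3381.8 and 3825.2 (0.96, SE 0.20, adjusted p = 0.00681). The plaque protein Pkp2 fell (-2.01, adjusted p = 0.00927), as did Flg, which bundles keratin in cornified cells (-1.70, adjusted p = 0.0180), Tchh, which binds keratin in the inner root sheath (-1.55, adjusted p = 0.0281), and Dsg1b (-1.91, adjusted p = 0.0336). The calls for Flg, Tchh and Dsg1b were lost without Cre-positive 80 (0.0620, 0.0931 and 0.104) and without Cre-negative 46 (0.0612, 0.0834 and 0.0745). Tchh was also lost without Cre-negative 48 (0.0823), Flg without Cre-positive 76 (0.0617), and Dsg1b in edgeR (0.109) and when any of Cre-negative 48, 75 and 77 and Cre-positive 76 was left out (0.0689 to 0.0918).

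Of 24 genes that regulate keratins, 22 were tested, and 1 rose and 7 fell, with a median of -0.65. The shares of all genes tested were 4.66% higher and 9.11% lower. Foxn1, the factor required for thymic epithelium and for hair, had 1205.9, 1147.5, 1290.9 and 1375.1 normalized counts against 597.7, 547.8 and 715.2 (-1.02, SE 0.17, adjusted p = 0.00236). Dlx3, a homeobox factor of hair and upper epidermis, had 87.2, 80.8, 153.1 and 82.7 against 1.0, 15 and 10.4 (-3.78, SE 0.71, adjusted p = 0.00405), and -2.86 without Cre-positive 45 or -3.06 with a pseudocount of 5. Foxq1, a hair shaft factor (-1.60, adjusted p = 0.00243), and the epidermal factors Grhl3 (-1.50, adjusted p = 0.00696) and Grhl1 (-1.41, adjusted p = 0.0141) fell too, the last without its call when Cre-negative 46 was left out (0.0504). Gata3, which acts in the inner root sheath, also fell (-2.25, adjusted p = 0.00871). Trp63, the basal cell factor p63, had 812.9, 1082.5, 1040.5 and 593.5 against 1429.5, 1408.0 and 1469.9 (0.74, SE 0.21, adjusted p = 0.0362). Its call was lost with scaling to library totals (0.118) and without any 1 of Cre-negative 46 or 77 or the 3 Cre-positive libraries (0.0826 to 0.0883).

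Markers of the cell types a sort could hold were summed per library in normalized counts. Calls among them stand beside 4.66% higher and 9.11% lower over all genes tested. The mTEC list, which includes Krt5 and Krt14, gave 113563 to 194362 without Cre and 138300 to 196356 with Cre, with Ccl21a listed at 0 in all libraries. H2-Aa and H2-Ab1, neither of them called, make up most of each mTEC sum. Among the 12 tested genes of that list the 2 higher calls were Krt5 and Krt14 themselves. Its 4 lower calls were Aire (4417 ± 767 to 2967 ± 308, -0.56, adjusted p = 0.0395), the costimulatory ligands Cd80 (1170 ± 266 to 317 ± 58.0, -1.87, adjusted p = 2.51e-04) and Cd86 (-1.82, adjusted p = 0.00937), and the tight junction gene Cldn4 (-1.56, adjusted p = 0.00125). The Aire call was lost when Cre-negative 75 or 77 or Cre-positive 45 or 76 was left out (0.0921 to 0.133). cTEC markers gave 16619 to 19838 and 17765 to 27204 (1 higher, 3 lower of 8). Ctsl, called higher, and Ccl25, called lower, make up most of each cTEC sum. Sums overlapped between the groups for thymocytes (814 to 1601 and 682 to 2584), B cells (326 to 447 and 240 to 473), fibroblasts (1264 to 1794 and 1231 to 1668) and endothelium (376 to 518 and 303 to 403). Within the fibroblast list 3 of 7 genes were called lower, Col1a1 (-2.63, adjusted p = 0.0330), Col1a2 (-2.53, adjusted p = 0.00787) and Col3a1 (109 ± 45.8 to 7.77 ± 6.15, -3.94, adjusted p = 0.00350). Dcn, the largest single part of the sum in every library, was not called (0.53, adjusted p = 0.0968). Of the 3 called genes, Col1a1 lost its call in edgeR (0.143), in DESeq2 (0.204) and when any library other than Cre-negative 75 and Cre-positive 76 was left out (0.0609 to 0.0906). Its value was -1.59 without Cre-positive 80 and -3.74 without 76. Without Cre-positive 45, Col1a2 was at -1.94 and Col3a1 at -3.08. Of 5 B cell genes, 1 was called lower. The dendritic cell and macrophage sums were separate, at 5252 to 7053 without Cre and 7445 to 11397 with Cre. Lyz2, which makes up most of each of these sums, was called higher (5180 ± 699 to 8367 ± 2408, 0.66, adjusted p = 0.0328). Itgam (-2.30, adjusted p = 0.00531) and Adgre1 (-2.91, adjusted p = 8.19e-04) were called lower, and the others were not called. The median log2 fold change of the 8 genes was -0.76, so the sum does not speak for the list. The Lyz2 call was lost with scaling to library totals (0.0930). It was also lost without Cre-negative 46 (0.0822), 48 (0.0650) or 77 (0.0699), or without Cre-positive 80 (0.128). The part of these markers in the keratin results was not tested.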

How the data were processed

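Sorted mTECs were profiled in 7 SMART-seq libraries. The submitters' processing notes name STAR 2.7.9a, DESeq2 and GRCm39 without their settings. The deposited signal values are, from the values themselves, read counts divided by a size factor per library and rounded to 1 decimal by the authors. Coordinates in the deposited table equal GENCODE M21 (GRCm38) for 95.2% of 52489 genes, so GRCm38 is used for positions. Symbols missing for 3047 genes were filled from a gene ID table. The strand setting of counting is not given in the sources used here, so reads of a gene and of one overlapping it on the other strand cannot be told apart; Krt5, Krt6a, Krt6b, Krt7, Krt8, Krt10, Krt12, Krt75, Krt76 and Krt80 have such an overlap.

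Values were tested with limma 3.58.1 (intensity trend, R 4.3.3) on log2(normalized count + 1) for genes with a mean of at least 5, with Benjamini-Hochberg adjustment. The script was tested on simulated data. Whole reads were recovered from the genes read in 1 library alone; all values came out whole within 0.0501 and all deposited means were rebuilt. In Cre-positive 76 the size factor is so near to 1 that its rounded values alone do not show the step, and its reads rest on the unrounded mean. These reads served edgeR 4.0.16 and DESeq2 1.42.0 as alternatives, class totals and detection. Pairs were compared by exact permutation. The members, classes and lists were chosen with earlier results of these data known. Named genes were keratins called or with a mean of at least 1000 and their partners, and up to 6 called genes of each list by smallest p (Trp63 was added after its value was seen). The deposited log2 stabilized values were not used. Fold changes and p-values of the authors' deposited table were used for counts of calls alone.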

Additional observations from a re-analysis of the deposited data

Results flagged for a closer look

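Among the 4 Cre-negative libraries, 5 of 54 keratins had a value far from the other 3 by Dixon's test, a test that chance passes in about 1 of 20 groups. Krt27 was high in Cre-negative 77, at 49.6 normalized counts. Krt32 was high in the same library, at 66.2. Krt36 was high in Cre-negative 75, at 43.2. Krt80 was high in Cre-negative 48, at 173.4. Krt76 was low in Cre-negative 48, at 153.7.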

How the results depend on the processing

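No called keratin reversed in any of the 17 alternatives. The number of keratins called lower was 16 in edgeR, 22 in DESeq2, 23 with scaling to library totals and 13 to 19 without 1 library (13 without Cre-negative 48), and of keratins called higher 1 to 3 (1 without Cre-positive 80). Within the samples numbered 45 to 48 it was 8 lower and 1 higher, and within 75 to 80 it was 5 lower and 1 higher. These are smaller sets, and the single Cre-positive sample of the first is assumed to vary like the others. Over all genes, 1066 were called higher and 2084 lower. With scaling to library totals it was 583 and 2638, and the middle value over all genes went from -0.10 to -0.30 on the log2 scale. Within samples 45 to 48 it was 46 and 449, within 75 to 80 it was 251 and 504, and without 1 library it was 600 to 1008 and 1315 to 1759. The Krt7 value reversed to -0.037 with library totals and to -0.049 within 75 to 80, and ran from -0.073 (without Cre-positive 80) to 0.46 without 1 library. Other keratins without a call reversed. Within 75 to 80 Krt15 was at 0.60, Krt33b at 0.30, Krt6b at 0.26, Krt82 at 0.056 and Krt87 at 0.18, and within 45 to 48 Krt27 was at 2.44 and Krt90 at 0.22. Krt6b was at 1.66 in edgeR, and Krt33b at 0.022 in edgeR, 0.015 in DESeq2 and 0.0070 with the number-range term. Without 1 library the values ran from -0.42 to 0.17 for Krt15, -1.81 to 0.90 for Krt27, -0.34 to 0.21 for Krt33b, -1.46 to 0.15 for Krt82, -1.72 to 0.16 for Krt87 and -1.30 to 0.47 for Krt90. The pair differences reversed to -0.14 for Krt5/Krt15 and -0.017 for Krt8/Krt19 within 75 to 80, and to -0.10 for Krt8/Krt18 within 45 to 48. The cause was not tested. No paired analysis was possible because the groups share no replicate numbers. Depth limits the hair and inner root sheath keratins with few reads.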
